A study of Drosophila melanogaster with 3 samples.

Results

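The mitochondrial ribosomal protein genes of Drosophila melanogaster were taken as the protein-coding genes on the main chromosome arms whose symbol begins with mRpL (large subunit) or mRpS (small subunit). There were 73 such genes, 47 of the large and 26 of the small subunit, among 13945 protein-coding genes, and the RefSeq description of all 73 begins with "mitochondrial ribosomal protein". The measurement was chromatin immunoprecipitation sequencing (ChIP-seq) of foxo tagged with eGFP, with an antibody against GFP. The larvae carried an eGFP exon placed in an intron of the endogenous foxo gene by a MiMIC insertion, so the gene makes a fusion protein. The 3 biological replicates came from this 1 line, each from whole wandering larvae of the last instar and of mixed sex, and they form the only group. The tissue that a peak came from is therefore unknown. Libraries from untagged larvae or input chromatin were not used here, so precipitation through foxo and background precipitation cannot be told apart.

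Mitochondrial ribosomes translate the few messages encoded by mitochondrial DNA, which code for core subunits of the respiratory chain and ATP synthase, while all proteins of these ribosomes are encoded in the nucleus, made in the cytosol and imported. Foxo is a forkhead transcription factor held in the cytoplasm when insulin signalling is active, and it moves to the nucleus when nutrients are short or stress is high. In flies it is known for control of growth, metabolism and lifespan. Many compact fly genes, housekeeping genes among them, sit head to head with a gene on the other strand, so that both are transcribed outward from 1 short gap.

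Foxo-eGFP peaks lay at the majority of mitochondrial ribosomal protein genes. A gene was called bound when the summit of a peak in the authors' optimal list, the peaks that passed their test of replicate reproducibility, lay within 1000 bp of a transcription start site (TSS). By this rule 44 of the 73 genes were bound, which is 60.3% (95% Wilson interval 48.8 to 70.7%), against 32.8% of all protein-coding genes. The 2 subunits had like shares: 28 of 47 large-subunit genes (59.6%, interval 45.3 to 72.4%) and 16 of 26 small-subunit genes (61.5%, interval 42.5 to 77.6%). The bound genes were reached by 50 distinct peaks, and 0 peaks lay within reach of a pair of members.

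Each replicate gave a like share when its own 9766 strongest peaks, the number in the optimal list, were used alone. Replicate 1 had 46 genes bound (63.0%, against 35.6% of all genes), replicate 2 had 42 (57.5%, against 31.5%) and replicate 3 had 43 (58.9%, against 33.2%), a mean of 59.8% ± 2.85 (SD, n = 3). In all 3 replicates the members' share was above that of all genes by more than this spread. The bound genes were largely the same, since 37 were bound in every replicate and all 37 were among the 44. Of the 29 genes not bound in the optimal list, 8 were bound in at least 1 replicate, and 21 of the 73 genes were bound in no list.

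Binding went with a shared promoter. A gene was called head to head when a TSS of another protein-coding gene lay on the opposite strand within 1000 bp upstream of its own. Of the 73 genes 58 were head to head (79.5%, interval 68.8 to 87.1%), against 36.2% of all genes. Among these, 42 of 58 were bound (72.4%, interval 59.8 to 82.2%), against 52.1% of all head-to-head genes. Among the other 15 genes only 2 were bound, mRpL10 and mRpL19 (13.3%, interval 3.74 to 37.9%), against 21.8% of all genes that were not head to head. The share of members without a divergent partner was not above that of other such genes in this list, although 15 genes leave a wide interval.

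In each replicate, too, head-to-head members had the larger share bound. Head-to-head members were bound at 75.9% in replicate 1, 69.0% in replicate 2 and 67.2% in replicate 3, where all head-to-head genes stood at 56.8%, 50.3% and 53.0%. Members not head to head were bound at 13.3%, 13.3% and 26.7%, where all such genes stood at 23.5%, 20.8% and 21.9%. The members are short genes, with a median length of 909 bp (quartiles 740 to 1195 bp) against 2166 bp for all genes. Genes with a length between those quartiles were bound at 21.3%, and 31.3% of them were head to head, so both shares of the members were above those of genes of their own length.

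**Figure D1:**
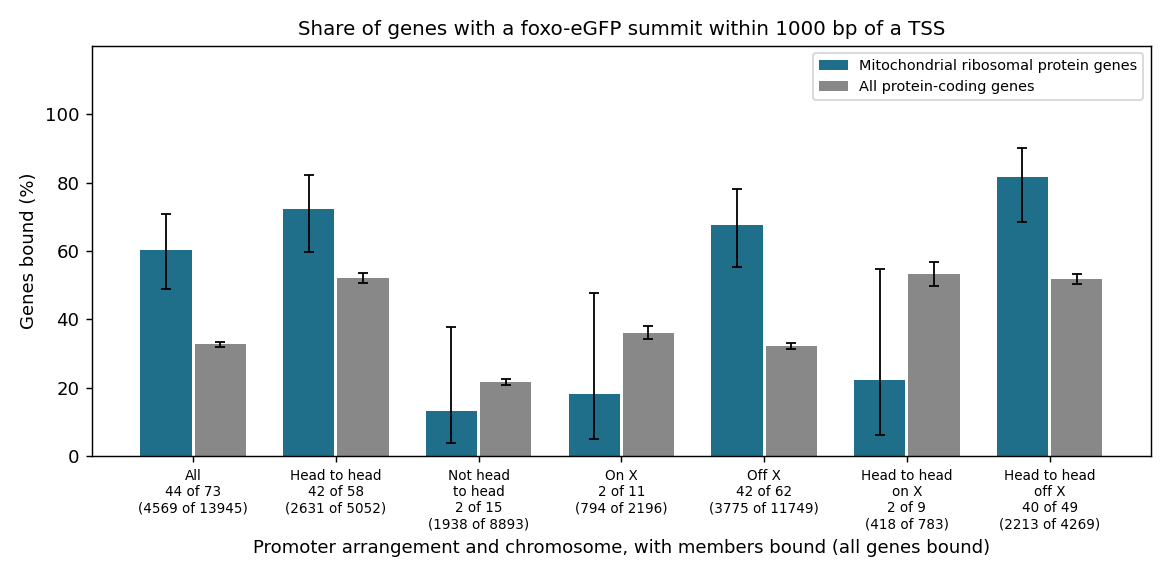
Share of genes bound (percent, y axis) among the 73 mitochondrial ribosomal protein genes and all 13945 protein-coding genes, split by promoter arrangement and chromosome (x axis). Bars are shares and error bars 95% Wilson intervals, with counts under each pair of bars. Members exceed all genes where they are head to head off X (40 of 49). On X they lie below them (2 of 11), but there the members' interval includes the share of all genes.

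On X few members were bound. Only 2 of the 11 members on X were bound, mRpL33 and mRpS25 (18.2%, interval 5.14 to 47.7%), against 36.2% of all genes on X, while 42 of 62 members elsewhere were bound (67.7%, interval 55.4 to 78.0%), against 32.1%. Of the 11 members on X, 9 were head to head. Of those 9, 2 were bound, against 53.4% of all head-to-head genes on X, and off X 40 of 49 were bound (81.6%, interval 68.6 to 90.02%), against 51.8%. The genes for cytosolic ribosomal proteins ran the other way, with 15 of 15 bound on X and 57 of 78 elsewhere (73.1%). The interval of the X members includes the share of all X genes. In the replicates 4, 3 and 2 of the 11 X members were bound (36.4%, 27.3% and 18.2%), where all X genes stood at 38.6%, 36.1% and 32.2%. In replicate 1 the X members were thus close to all X genes. The larvae were of mixed sex, so the number of X chromosomes differed between animals. The part of this in the members' share was not tested.

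Signal at the bound genes spanned a wide range with a median below that of all bound genes. The signal is the authors' value for peak height, of unstated normalization, and it is compared here only within 1 list. The highest peak of each bound member had a median signal of 402 (lowest 164, quartiles 293 to 697, highest 5996), against 460 over all 4569 bound genes and 321 over all peaks of the list. It exceeded 321 in 31 of the 44, and 70.5% of the members' peaks were in the stronger portion of the list cut at its median, against 67.1% for all bound genes. A signal over 1000 was found at 8 genes, 5 of the large and 3 of the small subunit (18.2%, interval 9.51 to 32.0%), against 19.3% of all bound genes. At the very top, 4 of the 44 had a rank of 100 or better (9.09%, interval 3.59 to 21.2%), against 2.34% of all bound genes.

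**Figure D2:**
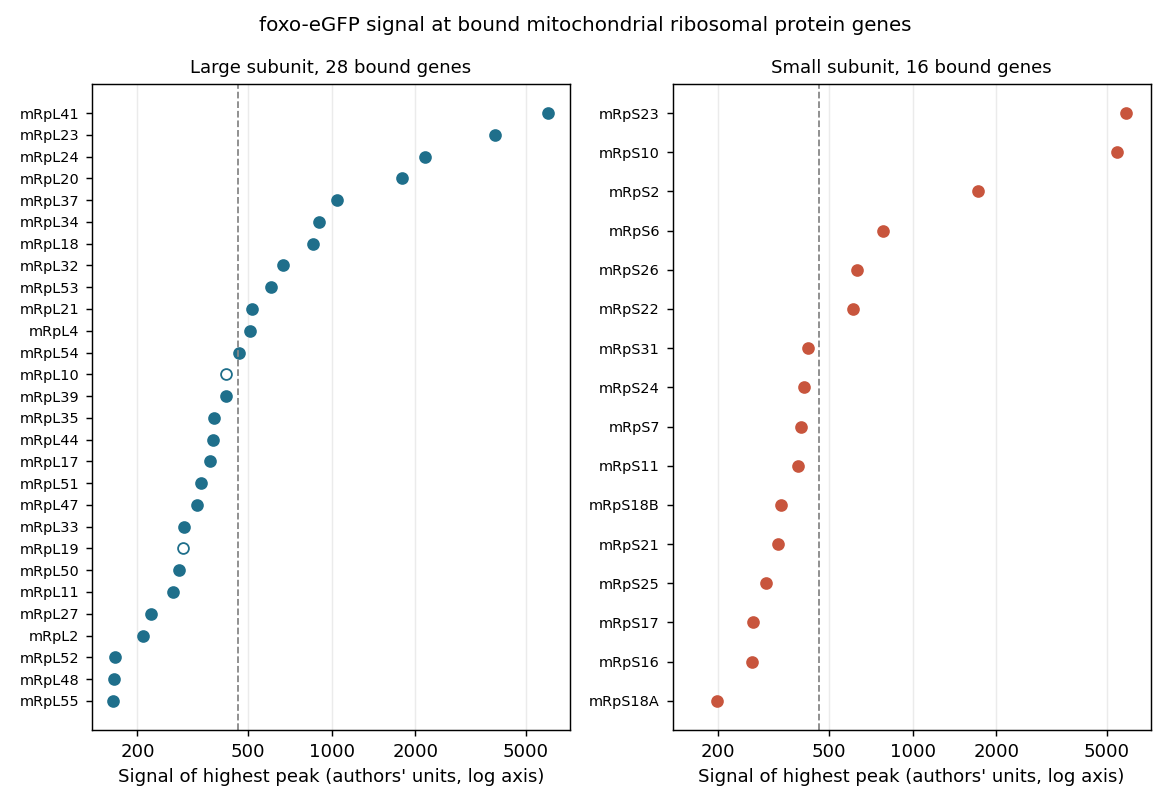
Signal of the highest foxo-eGFP peak (authors' units, log axis) at each of the 28 bound large-subunit and 16 bound small-subunit genes. Filled points are head-to-head genes and open points the other 2 bound genes (mRpL10 and mRpL19), and the dashed line is the median of all bound genes, 460, above which mRpL41 (5996), mRpS23 (5851) and mRpS10 (5435) lie farthest.

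Among small-subunit genes the peaks at mRpS23 and mRpS10 were by far the strongest. The protein of mRpS23 has no bacterial counterpart, and its peak (chr2L:13835192-13835702, dm6) had a signal of 5851 and rank 14 of 9766, with ranks 12, 15 and 17 in replicates 1, 2 and 3. In those 3 lists its signal was 2376, 2356 and 1181. The summit lay at −390 bp, in the gap shared with CenG1A, a gene for an Arf GTPase-activating protein, whose TSS it was nearer (−102 bp). The gene mRpS10, for a protein with a bacterial counterpart, had a peak (chr3R:15229293-15229781) of signal 5435 and rank 17, with ranks 17, 24 and 19 in the replicates and signals of 2156, 2141 and 1174. Its summit lay almost midway between its own TSS (−138 bp) and that of Art3, an arginine methyltransferase gene (−119 bp). The lower signals of replicate 3 hold for each of these peaks, and the ranks hardly differ, so ranks are used below.

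The other small-subunit genes fell off steeply. The peak of mRpS2 (chr2L:4850330-4850768) had a signal of 1722, rank 368, and ranks 355, 370 and 489 in the replicates. Its summit lay at −184 bp and at −38 bp from Mon1, which encodes an endosomal trafficking factor. The peak of mRpS6 (chr3L:4364302-4364612) had a signal of 781 at −96 bp, with replicate ranks of 1868, 1242 and 2227 and with Cip4 at −352 bp and CG33514 at −980 bp. The genes mRpS26 and mRpS22 encode proteins found in mitochondrial but not bacterial ribosomes. The first (chr3L:18106239-18106423) had a signal of 629 at −228 bp beside CG13698 (−202 bp), with ranks 2118, 2325 and 2504. The second (chr3R:27916486-27916721) had a signal of 612 at −240 bp beside CG5003 (−152 bp), with ranks 2380, 1963 and 2811, and a further summit of signal 445 at −40 bp. The 6 strongest small-subunit peaks were each in a gap shared with another gene, but all 16 bound small-subunit genes were head to head. Each of the 6 was among the 9766 strongest in every replicate.

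The gaps below show the sequence under these peaks. They are the parts of head-to-head gaps that lie between the 2 TSSs and outside every annotated exon, for 3 small-subunit and 2 large-subunit genes of high signal, beside gaps of 2 genes that were not bound. A gap over 280 bp was trimmed to 100 bases on each side of the summit, or of the middle of the gap where there was no summit. Sequence is from the NCBI Release 6 genome (dm6), 5′ to 3′ on the strand of the named gene, and capitals mark every match to the forkhead core (any of ATAAACA and GTAAACA and ATAAATA and GTAAATA, on either strand). The windows are chr2L:13835362-13835562 (minus strand) for mRpS23, chr3R:15229409-15229664 (plus) for mRpS10, chr2L:4850420-4850640 (minus) for mRpS2, chr2L:4945362-4945578 (minus) for mRpL24, chr3L:13018033-13018233 (minus) for mRpL20, chr3R:8301109-8301309 (plus) for mRpL1 and chrX:15760890-15761090 (plus) for mRpL3.
mRpS23, bound: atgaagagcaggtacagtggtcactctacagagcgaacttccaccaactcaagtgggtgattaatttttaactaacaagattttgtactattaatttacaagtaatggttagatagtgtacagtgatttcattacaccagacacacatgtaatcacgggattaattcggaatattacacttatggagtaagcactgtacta
mRpS10, bound: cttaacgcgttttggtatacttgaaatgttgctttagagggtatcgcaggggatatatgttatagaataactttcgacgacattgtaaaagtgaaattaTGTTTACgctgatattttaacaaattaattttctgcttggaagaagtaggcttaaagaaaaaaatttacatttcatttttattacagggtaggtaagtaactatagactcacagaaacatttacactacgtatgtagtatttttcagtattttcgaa
mRpS2, bound: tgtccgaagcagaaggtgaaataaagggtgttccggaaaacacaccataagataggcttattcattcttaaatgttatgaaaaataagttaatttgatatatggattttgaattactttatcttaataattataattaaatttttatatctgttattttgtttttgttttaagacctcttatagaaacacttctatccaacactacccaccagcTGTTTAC
mRpL24, bound: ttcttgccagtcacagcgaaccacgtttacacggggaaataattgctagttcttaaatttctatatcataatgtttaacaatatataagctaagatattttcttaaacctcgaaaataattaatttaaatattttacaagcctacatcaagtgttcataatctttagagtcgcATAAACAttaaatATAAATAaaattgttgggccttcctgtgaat
mRpL20, bound: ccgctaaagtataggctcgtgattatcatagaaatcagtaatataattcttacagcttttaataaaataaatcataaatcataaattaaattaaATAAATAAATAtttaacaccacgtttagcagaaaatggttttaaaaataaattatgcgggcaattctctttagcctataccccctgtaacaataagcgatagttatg
mRpL1, not bound: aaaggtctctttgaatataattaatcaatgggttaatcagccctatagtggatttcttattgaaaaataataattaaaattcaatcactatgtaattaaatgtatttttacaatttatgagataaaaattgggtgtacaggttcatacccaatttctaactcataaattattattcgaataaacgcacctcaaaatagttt
mRpL3, not bound: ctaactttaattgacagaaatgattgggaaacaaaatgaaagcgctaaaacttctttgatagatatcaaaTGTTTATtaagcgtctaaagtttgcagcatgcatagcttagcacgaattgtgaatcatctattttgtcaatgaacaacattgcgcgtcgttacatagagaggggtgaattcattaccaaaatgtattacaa

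The windows shown, which are a choice of genes, do not sort by the forkhead core. The window at the mRpS23 summit, rank 14, holds 0 matches, those of mRpS10 and mRpS2 hold 1 each, and those of mRpL24 and mRpL20 hold 2 each, which in mRpL20 overlap. The match of mRpS2 lies at the end of its window, next to the TSS. The 201 bp at the mRpS2 summit (−184 bp) hold no forkhead core. Of the windows at genes that were not bound, mRpL3 holds 1 and mRpL1 holds 0. A like window of mRpL16, not bound and not shown, holds 0. The promoter of mRpL1, from 250 bp before to 49 bp after its TSS, does hold a forkhead core outside the trimmed window. Guanine and cytosine make up 26.9% to 35.8% of the 5 windows shown at bound genes, and 24.9% (mRpL1) and 33.3% (mRpL3) of those shown at genes that were not bound, so the 2 sets overlap. Over all 44 bound genes the 201 bp at the summit held a forkhead core in 36.4%, against 38.8% over the summits of all bound genes, and the preferred forkhead site GTAAACA in 6.82%, against 6.72%. Among genes of high signal without a window here, mRpL41 held a forkhead core in these 201 bp, and mRpL23 and mRpL37 did not.

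Among large-subunit genes mRpL41 had the strongest peak of the whole group. Its protein has no bacterial counterpart. The peak (chr2R:15217504-15218091) had a signal of 5996 and rank 12, with ranks 11, 17 and 13 in the replicates, and its summit lay at −142 bp in a gap of 762 bp shared with CG8079 (−620 bp). The gene mRpL23, for a protein whose bacterial counterpart sits at the exit of the peptide tunnel, had a peak (chr3L:2373368-2373835) of signal 3853 and rank 55, with ranks 49, 56 and 58. This summit was at +43 bp, in a 5′ untranslated region, and at −93 bp from CG9004, which has a TSS 24 bp upstream of a TSS of mRpL23 on the other strand. These 2 genes and mRpS23 and mRpS10 were the 4 members with a rank of 100 or better.

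The next large-subunit genes had peaks of intermediate signal. The peak of mRpL24 (chr2L:4945268-4945674) had a signal of 2171 at −131 bp, with replicate ranks of 177, 242 and 264, and lay at −87 bp from betaggt-I, a prenyltransferase subunit gene. The peak of mRpL20 (chr3L:13017912-13018337) had a signal of 1786 at −266 bp, with ranks 287, 331 and 470, and lay at −133 bp from Icmt, which encodes a methyltransferase for prenylated proteins. Both were nearer the partner. The peak of mRpL37 (chr3R:10784035-10784451) had a signal of 1044 at −181 bp, with ranks 821, 1046 and 1349. The peak of mRpL34 (chr2R:16098548-16098972) had a signal of 901 at −207 bp, with ranks 1176, 1116 and 2040, beside the dystroglycan gene Dg (−177 bp). All 6 of the strongest large-subunit peaks were among the 9766 strongest in each replicate.

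**Figure D3:**
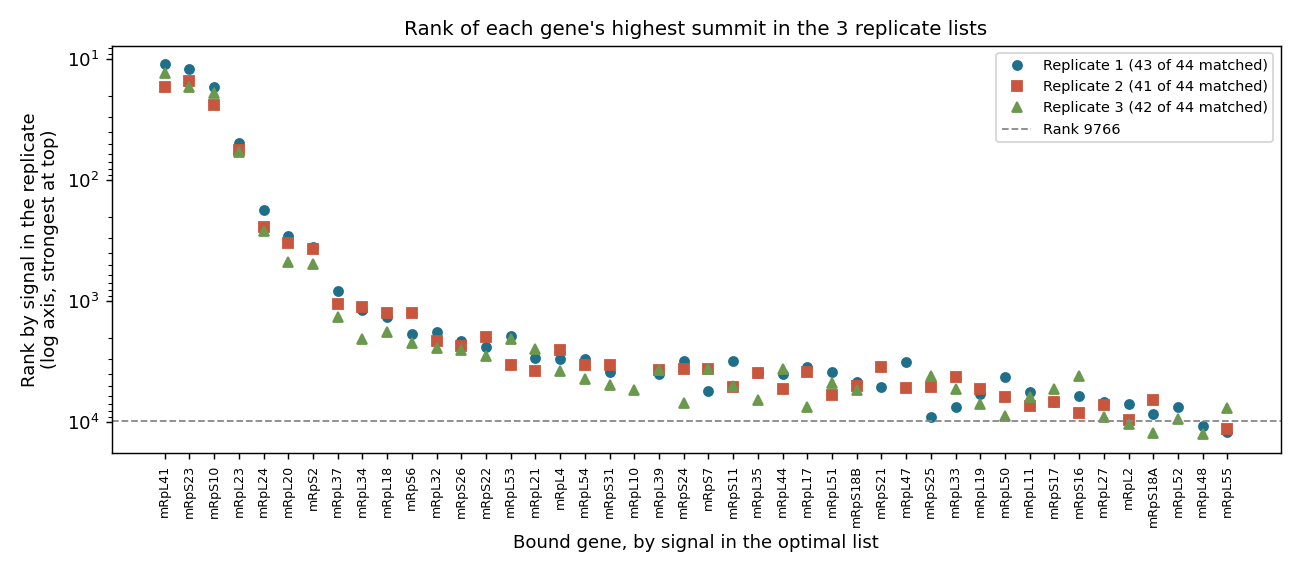
Rank by signal (log axis, strongest at the top) of the highest summit of each of the 44 bound genes in the lists of replicates 1, 2 and 3, ordered by signal in the optimal list. A point is missing where no summit lay within 100 bp, the dashed line is rank 9766, and the 7 strongest genes lie within rank 489 in every replicate.

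The weakest bound genes were weak in the replicates as well. They were mRpL55 (chr3R:19093972-19094431, signal 164, rank 9103), mRpL48 (chr2L:1709251-1709710, signal 165, rank 9089), mRpL52 (chr2R:7674240-7674699, signal 166, rank 9037) and mRpS18A (chr3R:8562414-8562873, signal 198, rank 7777). Replicate ranks were 11893, 11264 and 7591 for mRpL55, 10726, none and 12483 for mRpL48, 7414, none and 9453 for mRpL52, and 8515, 6583 and 12150 for mRpS18A. None of these 4 was among the 9766 strongest in every replicate. The summit of mRpL55 lay at +703 bp, at +68 bp of the kinase gene cdi and at −798 bp of ATPsynD, and that of mRpL48 at −981 bp, at +940 bp of CG17660. The summits of mRpL52 (−70 bp, beside CG12107 at +20 bp) and mRpS18A (−51 bp, beside CG31460 at −29 bp and pch2 at −880 bp) were close to their genes.

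In all, the highest summit of 36 of the 44 bound genes was among the 9766 strongest peaks of every replicate, matched within 100 bp (81.8%, interval 68.0 to 90.5%), against 74.0% for all bound genes. Part of this agreement is built in, since the optimal list was derived from the same replicates. The 8 exceptions were the 4 weakest genes and mRpL2, mRpL10, mRpL47 and mRpS21. The last 3 had moderate signals, from 329 to 416. For mRpL10, whose bacterial counterpart anchors the ribosomal stalk, the optimal list holds a peak of signal 416 at −93 bp, but the lists of replicates 1 and 2 have no region that overlaps it and replicate 3 has it at rank 5444. For mRpL47 and mRpS21 replicate 3 had no summit within 100 bp, but had overlapping regions of rank 6400 and 11828.

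Most summits at the bound genes lay upstream of the gene. The median position was −136.5 bp from the nearest TSS of the gene, against −129 bp over all bound genes. It was −130.5 bp for the large and −199.5 bp for the small subunit. In the lists of replicates 1, 2 and 3 these medians were −128, −138 and −132 bp (large) and −157.5, −139 and −162 bp (small). The replicates thus show a smaller difference between the subunits, and replicate 2 almost none. The summit was upstream in 42 of 44 genes (95.5%, interval 84.9 to 98.7%), against 81.2% of all bound genes, and the 2 exceptions were mRpL23 and mRpL55. It lay over 100 and up to 300 bp upstream in 54.5%, against 34.5%, and in the last 100 bp before the TSS in 27.3%, against 24.0%. By annotation of all protein-coding genes, 33 of the 44 summits were intergenic, where 56.5% of those of all bound genes were. Of the others, 9 were in a 5′ untranslated region (20.5%, against 17.2%), 2 in an intron (4.55%, against 24.7%) and 0 in coding sequence. These features are mostly those of another gene. Apart from mRpL23, the summits in a 5′ untranslated region lay outside the member, as at mRpL2 (+41 bp of FoxK). The median G+C content of the 201 bp at the summit was 32.3%, against 35.8%.

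**Figure D4:**
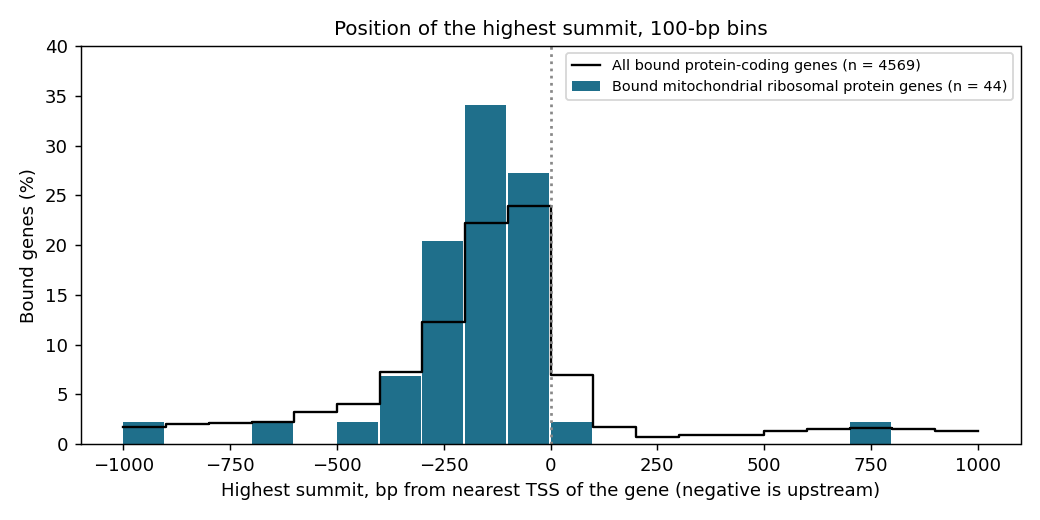
Position of the highest summit from the nearest TSS of the gene (bp, x axis, negative is upstream) as the percent of bound genes per 100 bp (y axis), for the 44 bound members (bars) and all 4569 bound genes (line). Members gather between −300 and −1 bp, and 2 of 44 lie downstream.

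Nearly every peak at a member could as well belong to another gene. The highest summit lay within 1000 bp of a TSS of another protein-coding gene for 42 of the 44 bound members (95.5%, interval 84.9 to 98.7%), against 58.1% of all bound genes, 68.1% of bound cytosolic ribosomal protein genes and 78.8% of bound oxidative phosphorylation genes. It was 1 other gene for 37 members, 2 for 5, and 0 for mRpL10 and mRpL19. The 42 were the same genes as the bound head-to-head members. Counted by a head-to-head partner alone, the shares were 95.5% of bound members and 57.6% of all bound genes. The result thus largely restates the head-to-head arrangement. These peak lists do not tell which gene of a pair a peak acts on, or whether it acts on either.

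Summits at head-to-head members lay more often nearer the partner's TSS than their own. For the 42 bound head-to-head members the summit lay between the 2 TSSs in 32 (76.2%, interval 61.5 to 86.5%), against 64.0% of all bound head-to-head genes. It was nearer the TSS of the partner in 30 of 42 (71.4%, interval 56.4 to 82.8%), nearer that of the member in 11, and at the same distance in 1, mRpL53 with AGO1. Over all 2631 bound head-to-head genes 45.7% of summits were nearer the partner. Of the 10 members' summits outside the gap 8 were nearer the partner, and of the 32 within it 22 were (68.8%, interval 51.4 to 82.0%), against 49.9% of all summits within such a gap. Over all genes both genes of a pair are counted, so this 49.9% is largely held near an even split by the counting. In the replicates' own lists the members' shares were 68.2%, 60.0% and 69.2% (mean 65.8% ± 5.05, SD, n = 3), and those of all genes 46.1%, 45.1% and 45.8%. The members' share was higher in each of the 3 replicates by more than the spread between them.

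The partner genes have varied roles. Several act in mitochondria: HtrA2, a protease gene, beside mRpL11; Mitofilin, for a protein of the cristae junctions, beside mRpL35; Taz, for a cardiolipin-remodelling enzyme, beside mRpL18; qless, for an enzyme of coenzyme Q synthesis, beside mRpL32; and ATPsynD, an ATP synthase subunit gene, beside mRpL55. Others act elsewhere, such as Cdk1, a cell cycle kinase gene, beside mRpS7, Prosbeta2, a proteasome subunit gene, beside mRpL39, Snr1, a chromatin remodelling gene, beside mRpL44, and FoxK, another forkhead gene, beside mRpL2. These partners were picked for known roles after the list was seen. No member was the partner of another at a bound peak.

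The 29 genes that were not bound fall into 3 kinds. The first are 9 on X: mRpL3, mRpL14, mRpL16, mRpL22, mRpL30, mRpL38, mRpL49, mRpS14 and mRpS30. Off X, 11 have no divergent partner: mRpL9, mRpL12, mRpL13, mRpL36, mRpL40, mRpL45, mRpS5, mRpS9, mRpS33, mRpS34 and mRpS35. The remaining 9 are head to head off X: mRpL1, mRpL15, mRpL28, mRpL42, mRpL43, mRpL46, mRpS18C, mRpS28 and mRpS29. Among these 29 are mRpL12, whose bacterial counterpart forms the stalk that recruits translation factors, and mRpS29, which is also known as DAP3.

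Most of these genes had no region even in the longer lists. In the pooled list of 30000 peaks and background regions, 23 of the 29 had none within 1000 bp. The other 6 had weak ones: mRpL36 with a signal of 140 at +187 bp (rank 10416), mRpS5 with 139 at +443 bp (10438), mRpS18C with 126 at −68 bp (11374), mRpL13 with 120 at −65 bp (11860), mRpL22 with 118 at −5 bp (12021) and mRpL49 with 101.1 at −812 bp (13509). All 6 lie below the lowest signal of a bound member, 164. Their best replicate ranks were 8187 for mRpL36, 9439 for mRpS5, 8551 for mRpS18C, 8476 for mRpL13, 8486 for mRpL22 and 10056 for mRpL49. The genes mRpL16, mRpL43 and mRpS30, named after their values were seen, had a region in 1 replicate each, of rank 5871, 4752 and 5629, and in no other list.

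The limit of 1000 bp decided few calls. The bound members with the most distant nearest summit were mRpL48 at 981 bp, mRpL55 at 703 bp and mRpL33 at 664 bp. Of the unbound, the closest were mRpL13 at 1462 bp, mRpL22 at 1586 bp and mRpL46 at 1904 bp. No member lay between 981 and 1462 bp.

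For comparison, other genes of mitochondrial gene expression and of the respiratory chain had lower shares bound, and cytosolic ribosomal protein genes a higher one, and these differences were not tested. The small-subunit protein genes tko and bonsai, which do not carry the mRp symbol, were not bound. The list of other genes of mitochondrial gene expression held, among others, mitochondrial aminoacyl-tRNA synthetases, translation factors and transcription factors. It also held PolG1, PolG2 and mtSSB, which act in mitochondrial DNA replication. Of its 35 genes, 9 were bound (25.7%, interval 14.2 to 42.1%). The strongest was PNPase, for a mitochondrial RNA-processing enzyme (chr3R:31404412-31404911), with a signal of 6081, rank 11, and replicate ranks of 10, 10 and 16. Its summit at +80 bp lies in a promoter region shared with Gprk2. The next were LeuRS-m (signal 1441 at −904 bp), mtSSB (1270 at −305 bp) and ArgRS-m (573 at −119 bp), of which ArgRS-m had no match in replicate 3. Of 84 oxidative phosphorylation genes 33 were bound (39.3%, interval 29.5 to 49.98%), and of 93 cytosolic ribosomal protein genes 72 (77.4%, interval 67.9 to 84.7%).

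The promoters of the members share a motif that the choice of genes did not use. CAGCTG is the core of a promoter element known in flies as Ohler motif 5. In the window from 250 bp before to 49 bp after the canonical TSS, it was present in 40 of 73 members (54.8%, interval 43.4 to 65.7%), against 17.9% of all genes. CAGCTG reads the same on both strands. Of all 2080 6-base words, pooled with their reverse complements, it had the largest difference in share, 36.9 percentage points. It was present in 53.4% of head-to-head members, against 22.1% of all head-to-head genes, and in 60.0% of the other members, against 15.5%. It was present in 59.1% of bound and 48.3% of unbound members. Cytosolic ribosomal protein genes had it in 9.68%, oxidative phosphorylation genes in 26.2% and the other genes of mitochondrial gene expression in 48.6%.

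The motif gathered near the start site and was no more frequent at the members' summits than at others. The 45 copies in member promoters began at a median of +2 bp, against −53 bp for all genes, and 35 of the 45 (77.8%) began between −50 and +44 bp, against 48.7% for all genes, a range chosen after the values were seen. In the 201 bp at the summits of bound members it was present in 11.4%, against 12.1% for all bound genes. The lines below give the 40 bases before the TSS, outside annotated exons, of 3 bound genes (mRpL21, mRpL32 and mRpS2) and 2 that were not (mRpL45 and mRpS35), with CAGCTG in capitals. They are chr3L:19255062-19255101 (minus strand), chr3R:31252832-31252871 (plus), chr2L:4850420-4850459 (minus), chr3R:22618452-22618491 (plus) and chr3L:2780859-2780898 (plus), dm6, in the same order, 5′ to 3′ on the strand of the gene.
mRpL21, bound: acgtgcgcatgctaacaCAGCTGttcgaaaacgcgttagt
mRpL32, bound: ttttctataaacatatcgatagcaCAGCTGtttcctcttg
mRpS2, bound: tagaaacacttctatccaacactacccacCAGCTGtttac
mRpL45, not bound: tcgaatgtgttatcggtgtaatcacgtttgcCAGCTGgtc
mRpS35, not bound: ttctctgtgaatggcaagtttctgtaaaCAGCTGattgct

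The motif thus occurs with and without a peak. In the lines of both mRpS2, bound, and mRpS35, not bound, it overlaps a match to the preferred forkhead site GTAAACA on 1 of the strands. Of the other motifs sought on both strands, the DNA replication-related element TATCGATA was in 20.5% of member promoters, against 8.94% of all. Ohler motif 1 (GGTCACAC) was in 11.0% against 7.54%, the E-box form CACGTG in 6.85% against 4.26%, TATAAA in 46.6% against 45.3%, and GAGAG in 16.4% against 30.2%. Among head-to-head genes alone, the shares of members and of all such genes were 20.7% and 15.2% for TATCGATA, 12.1% and 12.8% for GGTCACAC, 8.62% and 4.93% for CACGTG, 43.1% and 47.1% for TATAAA, and 17.2% and 24.2% for GAGAG. For GGTCACAC and TATAAA the members' share was thus above that of all genes but not above that of head-to-head genes. The forkhead core was in 50.7% of member promoters against 45.8%, with 22 of 44 bound members and 51.7% of the unbound, and GTAAACA in 12.3% against 9.32%, with 11.4% in bound and 13.8% in unbound members. Among head-to-head genes alone the forkhead core was in 51.7% of members and 52.2% of all, and GTAAACA in 12.1% and 11.6%. Neither forkhead form was more frequent in bound than in unbound members.

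**Figure D5:**
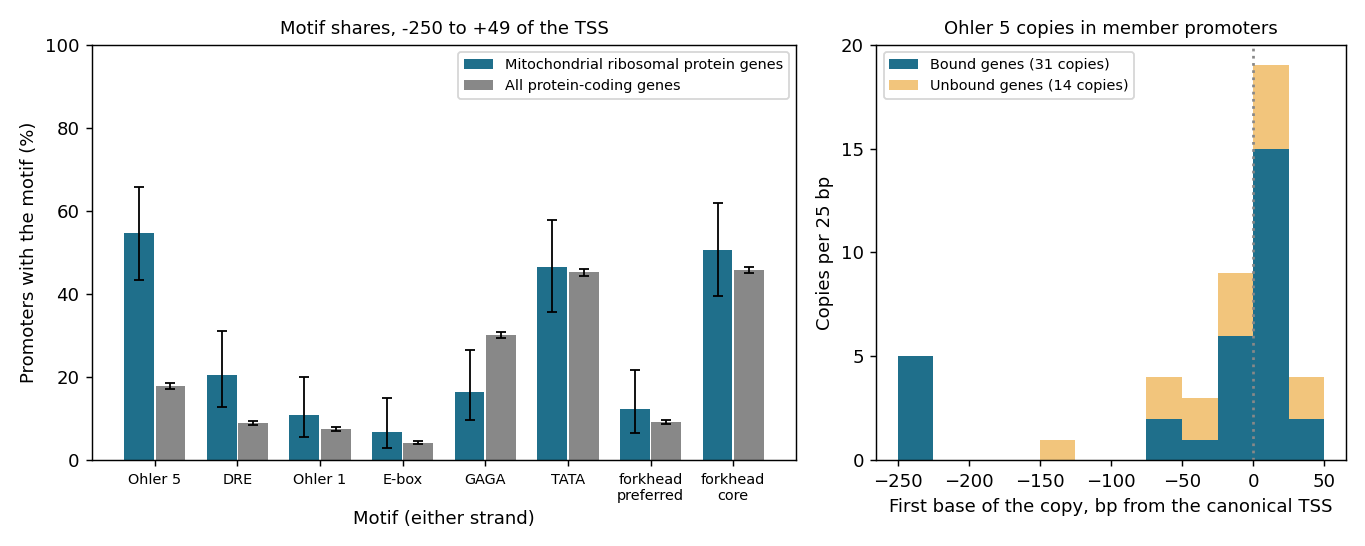
Left, percent of promoters (y axis) that hold each named motif (x axis) among the 73 members and all 13945 genes, with 95% Wilson intervals. Right, number of Ohler motif 5 copies per 25 bp (y axis) by position from the canonical TSS (bp, x axis) in bound and unbound members: the 45 copies gather at the TSS in both.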

How the data were processed

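ChIP-seq of foxo-eGFP was analysed from the deposited dm6 peak lists of 3 biological replicates in 1 group. The authors deposited an optimal list that passed their irreproducible discovery rate procedure and relaxed lists of 30000 peaks and background regions for each replicate and for the pool, per the file headers and labels. The value used is the signal that the authors deposited for each peak, and the sources used here give neither its normalization nor the aligner, peak caller and threshold. Sequencing depth is unknown, and Wilson intervals at 95% cover counting error only. Genes are sites in the same libraries and not replicates, and no test over genes was run.

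Summits on the main arms were compared with TSSs of Ensembl release 115, and sequence was read from the NCBI Release 6 genome, the assembly of dm6. A replicate matched when it had a summit within 100 bp. Scripts used Python 3.11.15, numpy 2.4.6, scipy 1.17.1 and matplotlib 3.10.9 and were tested on simulated data. The lists on dm3 were not used.

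The genes and lists were chosen with earlier results of these data known. Full values are given for the 6 large- and 6 small-subunit genes of highest signal, the 4 bound genes of lowest signal, the 3 nearest each side of the window's edge, the up to 6 unbound genes with the highest pooled signal, and up to 4 bound genes of the list of mitochondrial gene expression, 2 symbols of which, Mtfmt and CG6412, were not found in the annotation. The neighbour of 1 of these genes is not reported here. Other genes named were chosen after their values were seen. Alternatives were other windows, the canonical TSS, stricter and looser peak sets, leaving each replicate out of the match of optimal peaks, and other matching rules. Leaving out X or the 3 bound genes nearest the window's edge was chosen after seeing the data.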

Additional observations from a re-analysis of the deposited data

How the results depend on the processing

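The share of members bound was above that of all genes in 14 of 14 alternatives. It was 56.2% with a window of 500 bp (28.7% of all genes) and 67.1% with 2000 bp (38.8%). With the stronger portion of the optimal list (its 4883 strongest peaks) it was 42.5% (22.0%). It was 49.3% with peaks in the top 9766 of all 3 replicates (24.8%) and 68.5% with the full pooled list (48.0%). Without X, a setting chosen after seeing the data, it was 67.7% (32.1%). Optimal peaks in the top 9766 of the remaining replicates, with each replicate left out of this match in turn, gave 49.3% to 54.8% (25.8% to 27.6%). The optimal list itself still drew on all 3 replicates, so these values, given below as without a replicate, do not remove its influence. The median signal was below that of all bound genes in 8 of 8 alternatives: 416 at 500 bp, 402 with canonical TSSs, 517 with the stronger portion, 442 with the peaks of all 3 replicates, and 412 to 442 without a replicate. The median position was −149 bp with canonical TSSs, −158.5 bp with the peaks of all 3 replicates, and −158.5 to −140 bp without a replicate. The share upstream was 97.6% at 500 bp, 87.8% at 2000 bp, 96.8% with the stronger portion, 97.2% with the peaks of all 3 replicates and 97.2% to 97.5% without a replicate. The share with another gene's TSS in reach was 90.2% at 500 bp, 96.8% with the stronger portion, 97.2% with the peaks of all 3 replicates and 97.2% to 97.5% without a replicate. Both shares were above those of all bound genes in each alternative run (8 of 8 and 9 of 9). The share of summits found in all 3 replicates was 43.2% against 50.3% for all bound genes when each replicate's list was cut at its 4883 strongest peaks, and it was above that of all bound genes in the other 3 alternatives. The cause of these moves was not tested where it does not follow from keeping fewer or more peaks or a wider window. No paired analysis was possible because the samples form 1 group.

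The lists hold no counts, and signal below the weakest listed region was not measured. With 11 members on X and 15 not head to head, 1 gene more or less moves those shares by several percentage points.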

Other observations

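Off X most head-to-head members were bound at every width of the shared gap. With ranges chosen after the values were seen, 12 of 17 members with a gap under 100 bp were bound, 13 of 15 with a gap of 100 to under 300 bp, and 15 of 17 with a gap of 300 to 1000 bp. All head-to-head genes off X stood at 47.0%, 53.5% and 52.3% in these ranges.

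A further 4 bound members, besides mRpS22, had more than 1 summit in reach. They were mRpL17 (a further signal of 232 at −108 bp), mRpL39 (204 at −278 bp), mRpS31 (255 at −13 bp) and mRpL47, with 189 at −678 bp and 164 at −418 bp. After CAGCTG, the 6-base words with the largest difference in share between member promoters and all promoters were ACAGCT (50.7% against 19.7%) and AACAGC (50.7% against 21.9%), which overlap CAGCTG, and TATCGA, part of the DNA replication-related element, was in 49.3% against 27.0%.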
